A study of Homo sapiens with 4 samples.

Results

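The genes described here encode enzymes and transporters of central carbon metabolism. Their roles are glucose and lactate transport, glycolysis, the pentose phosphate pathway, entry of pyruvate into mitochondrial metabolism and the TCA cycle. Enzymes that link the cycle to malate, glutamate and NADP are included. The 57 genes were chosen by name, out of 35767 genes in the deposited count table. All 57 were found and passed the filter on low counts. The cells were SAS, a line from a squamous carcinoma of the human tongue. The 2 libraries labelled siNAT10 (replicates 1 and 2) had, by their titles, a small interfering RNA against NAT10, an enzyme that acetylates cytidines in RNA, and the 2 libraries labelled siControl (replicates 1 and 2) had a control siRNA. All 4 libraries came from the same cell line and were made from total RNA with the same mRNA kit. The labels do not state the siRNA sequences, their number, the dose or the time after transfection. The replicates are called biological in the titles, but no label names separate cultures, so a p-value here reflects the spread from library to library, part of which may be technical.

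The labels were checked first. NAT10 (chromosome 11, 34105602 to 34147670, GRCh38) had 253 and 248 CPM (counts relative to the scaled library total) in the libraries labelled siNAT10, against 240 and 231 CPM in the siControl libraries. The log2 fold change was 0.09 ± 0.06 (SE; edgeR adjusted p = 0.293), with a 95% interval of -0.05 to 0.22, so no fall of NAT10 mRNA was seen in these libraries. The genotype label of the second of these libraries names NAT11, a synonym of NAA40. NAA40 had 18.6 and 18.2 CPM in the libraries labelled siNAT10, against 22.1 and 18.8 CPM in the siControl libraries, and was not called (log2 fold change -0.15 ± 0.10, edgeR adjusted p = 0.255). With libraries scaled by their totals alone, NAA40 was called lower (-0.26, edgeR adjusted p = 0.049). Every direction below is therefore a difference between libraries as labelled.

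Glycolysis breaks glucose down to pyruvate in the cytosol, and lactate dehydrogenase turns pyruvate into lactate when it is not sent to mitochondria. Inside mitochondria, pyruvate dehydrogenase and pyruvate carboxylase pass pyruvate on to the TCA cycle. The pentose phosphate pathway branches off early to make NADPH and ribose. Carcinoma cells are widely known for high glycolytic flux and lactate release, and many of these enzymes exist as isozymes encoded by separate genes.

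Of the 57 genes, 24 (42.1%) rose and 9 (15.8%) fell in the libraries labelled siNAT10 relative to siControl, and 24 were not called. Over all 20098 genes tested, the edgeR quasi-likelihood test at an adjusted p under 0.05 called 19.7% higher and 20.7% lower, so the share of these genes that rose stood above that of all genes and the share that fell stood below it. Their median log2 fold change was 0.14, with a range of -1.22 to 0.89, while the median of all tested genes was -0.01. Both libraries labelled siNAT10 lay above both siControl libraries for 30 of the 57 genes, where 34.1% of all tested genes did so. They lay below for 13 of the 57 genes, against 35.4% of all tested genes. In what follows, a value with ± and an adjusted p is a log2 fold change with its SE from the same fit of 2 against 2 libraries. By the fitted log2 fold change, 6 of the called genes were at least 1.5-fold higher and 5 at least 1.5-fold lower, with PGAM1 just under that bound at 0.58, and PCK2 was the 1 gene that differed by 2-fold or more. Folds given for single genes are ratios of the mean CPM of each group. Among all tested genes, 3951 were called higher and 4169 lower. With libraries scaled by their totals alone these counts were 2688 and 5604, and the median of all tested genes was -0.12. Under that scaling 18 of the 57 genes were higher and 13 lower, and their median was 0.03.

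**Figure D1:**
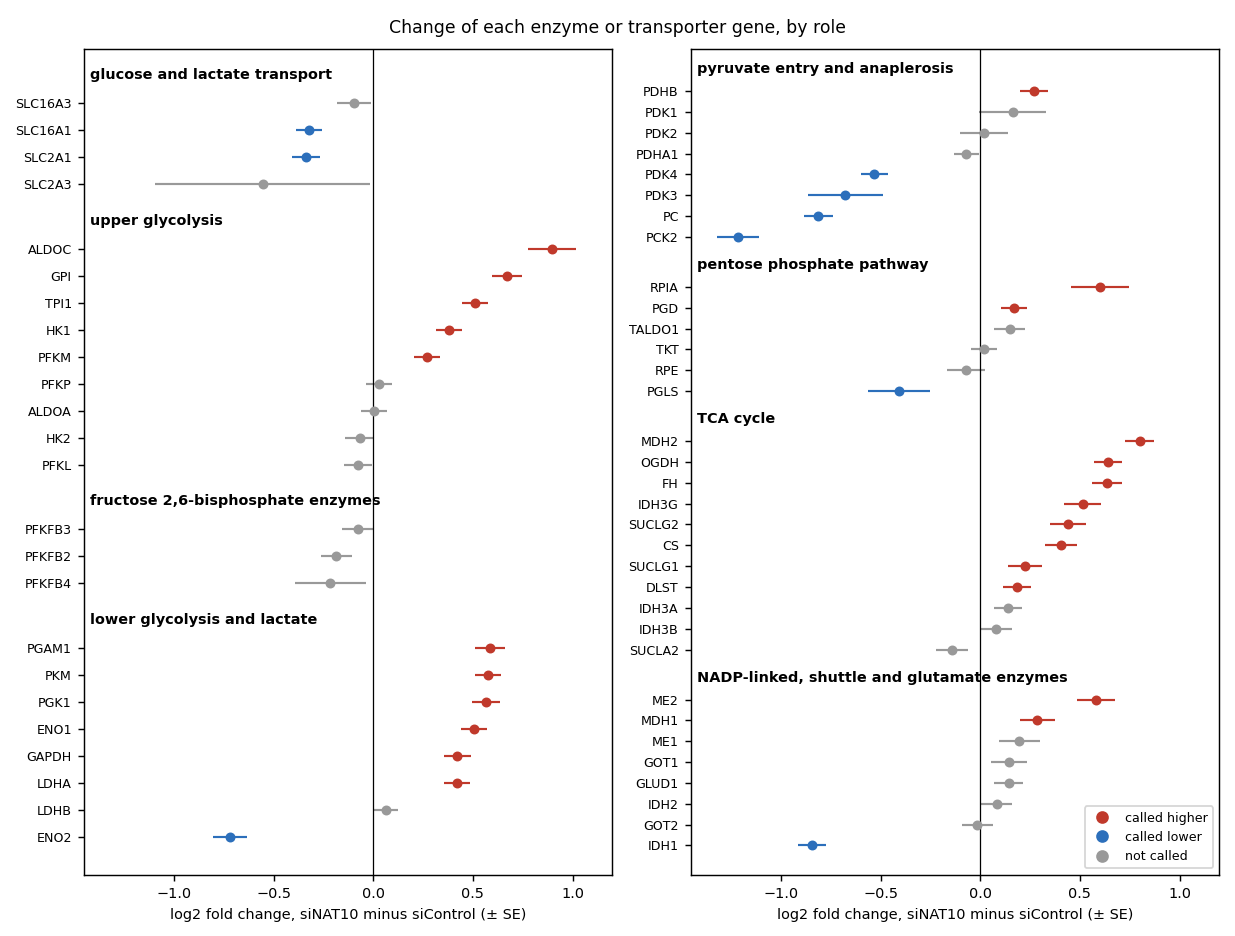
Log2 fold change of each of the 57 genes in the libraries labelled siNAT10 minus siControl (x axis, bars are ± SE), grouped by role down the page; red marks genes called higher, blue genes called lower and grey genes not called at an edgeR adjusted p under 0.05. Red points fill most of lower glycolysis (6 of 8 genes) and the TCA cycle (8 of 11), and blue points lie mainly among pyruvate entry (4 of 8) and transport (2 of 4).

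**Figure D2:**
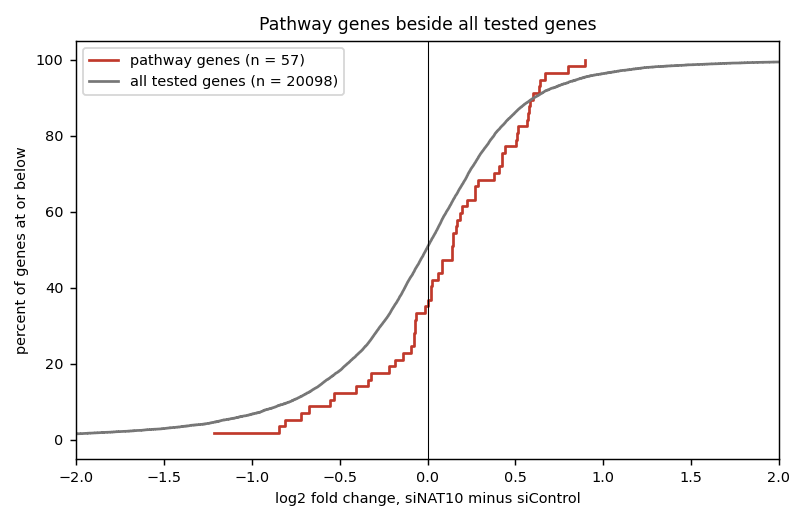
Cumulative percent of genes (y axis) at or below each log2 fold change (x axis, libraries labelled siNAT10 minus siControl) for the 57 pathway genes (red) and all 20098 tested genes (grey). The red curve lies to the right of the grey one over most of the range, and their medians are 0.14 and -0.01.

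Totals were 35896415 and 30794757 counts in the libraries labelled siNAT10 and 36341785 and 36068532 in the siControl libraries, so that a floor of 3 counts stood at 0.0826 to 0.0974 CPM. The 57 genes took 0.928% and 0.975% of all counts in the libraries labelled siNAT10, against 0.853% and 0.849% in the siControl libraries. Squamous markers were mixed: KRT17 (543 and 586 CPM in the libraries labelled siNAT10, against 822 and 866 CPM in siControl) and DSP were abundant, while KRT5 and TP63 stayed under 1 CPM in all 4 libraries. Of the 8 squamous markers tested, 5 were lower and 2 higher in the libraries labelled siNAT10. Those higher were SFN (263 and 267 CPM in the libraries labelled siNAT10, against 244 and 228 CPM in siControl) and JUP (111 and 118 CPM in the libraries labelled siNAT10, against 98.7 and 101 CPM in siControl). Both calls were lost with totals scaling and without either siNAT10 library, and that of SFN also without siControl replicate 2. Of 28 marker genes, 25 were found. The summed squamous markers were 3036 and 2956 CPM in the libraries labelled siNAT10 and 3683 and 3611 CPM in siControl. Fibroblast markers summed to 32.6 and 32.0 CPM in the libraries labelled siNAT10 and 34.5 and 38.2 CPM in siControl, and leukocyte markers, mostly CD68, to 54.1 and 54.0 CPM in the libraries labelled siNAT10 and 50.6 and 53.2 CPM in siControl. Endothelial markers summed to 3.35 and 3.76 CPM in the libraries labelled siNAT10 and 2.52 and 3.07 CPM in siControl. PTPRC, the defining leukocyte gene, was at 0.105 CPM or less in every library, and the part of these marker differences in the results below was not tested. In bulk RNA, fewer cells of a type and less RNA per cell cannot be told apart.

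Among the transporters, 2 of 4 genes fell and none rose, with a median log2 fold change of -0.33. SLC2A1 encodes GLUT1, the main basal glucose carrier, and lies on chromosome 1 (42925375 to 42959173). It had 72.1 and 66.8 CPM in the libraries labelled siNAT10, against 85.5 and 90.01 CPM in the siControl libraries, that is -0.34 ± 0.07 on the log2 scale (SE; edgeR adjusted p = 7.83e-04). SLC16A1 encodes MCT1, a proton-coupled carrier of lactate and pyruvate. It had 173 and 183 CPM in the libraries labelled siNAT10, against 216 and 229.6 CPM in siControl (-0.32 ± 0.07, edgeR adjusted p = 5.98e-04). For both genes the groups did not overlap. SLC16A3, the lactate exporter MCT4, was not called at -0.10 ± 0.09, but was called lower without siControl replicate 1 (-0.21, edgeR adjusted p = 0.0464). SLC2A3, the carrier GLUT3, stayed between 0.203 and 0.525 CPM, and 3 rows of its named pseudogenes together held 4111% of its own count, so its level is uncertain.

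In upper glycolysis, from hexokinase to triosephosphate isomerase, 5 of 9 genes rose and none fell, with a median log2 fold change of 0.27. HK1, the housekeeping hexokinase that traps glucose as glucose phosphate, had 281 and 277 CPM in the libraries labelled siNAT10, against 209.7 and 219 CPM in siControl (0.38 ± 0.06, edgeR adjusted p = 8.68e-05). GPI, which isomerises glucose phosphate to fructose phosphate, had 103 and 117 CPM in the libraries labelled siNAT10, against 72.3 and 65.8 CPM in siControl. That is a 1.59-fold difference (0.67 ± 0.08, edgeR adjusted p = 1.04e-06) with no overlap between groups. GPI shares 5.95% of its length with RP11-618P17.4, a row on the same strand. That row had 1101 and 1053 counts in the libraries labelled siNAT10, against 805 and 667 in siControl. TPI1, which interconverts the triose phosphates, had 342 and 353 CPM in the libraries labelled siNAT10, against 237 and 251 CPM in siControl (0.51 ± 0.06, edgeR adjusted p = 3.35e-06). PFKM, the muscle-type phosphofructokinase, was also called higher (0.27, edgeR adjusted p = 0.00238), although not when libraries were scaled by totals (0.16, edgeR adjusted p = 0.059). ALDOC, the aldolase known best from brain, rose most of the 57 genes and lies on chromosome 17 (28573115 to 28577264). It had 14.6 and 17.4 CPM in the libraries labelled siNAT10, against 8.64 and 8.54 CPM in siControl (0.89 ± 0.12, edgeR adjusted p = 7.17e-06). An unstranded count could not separate ALDOC from the antisense row RP11-192H23.5, which shares 10.1% of its length and had 48 and 42 counts in the libraries labelled siNAT10, against 24 and 23 in siControl. The 4 genes not called, HK2, PFKL, PFKP and ALDOA, had log2 fold changes between -0.08 and 0.03, and PFKL was called lower with totals scaling (-0.19, edgeR adjusted p = 0.0361). Intervals were narrow for these: -0.22 to 0.09 for HK2, the inducible hexokinase, and -0.14 to 0.14 for ALDOA, the ubiquitous aldolase.

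The bifunctional PFKFB enzymes make and remove fructose 2,6-bisphosphate, the activator of phosphofructokinase. None of the 3 genes was called, and their log2 fold changes were -0.19 for PFKFB2, -0.08 for PFKFB3 and -0.22 for PFKFB4. PFKFB2 had 47.2 and 44.3 CPM in the libraries labelled siNAT10, against 54.0 and 50.03 CPM in siControl, which missed the threshold (edgeR adjusted p = 0.0621). It was called lower without siControl replicate 2 (-0.24, edgeR adjusted p = 0.0197) and with totals scaling (-0.30, edgeR adjusted p = 0.00498).

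Lower glycolysis held the most abundant of these mRNAs, and 6 of its 8 genes rose while 1 fell, with a median log2 fold change of 0.46. PKM, pyruvate kinase, had 903 and 934 CPM in the libraries labelled siNAT10, against 583 and 651 CPM in siControl (0.57 ± 0.07, edgeR adjusted p = 1.25e-06). ENO1, the ubiquitous enolase, had 1661 and 1787 CPM in the libraries labelled siNAT10, against 1238 and 1191 CPM in siControl (0.51 ± 0.06, edgeR adjusted p = 3.29e-06). In both cases each library labelled siNAT10 stood well above each siControl library. PGK1, the kinase that makes the first ATP of the pathway, had 224 and 255 CPM in the libraries labelled siNAT10, against 164 and 159 CPM in siControl (0.57 ± 0.07, edgeR adjusted p = 3.08e-06). PGAM1, phosphoglycerate mutase, had 101 and 116 CPM in the libraries labelled siNAT10, against 72.5 and 72.4 CPM in siControl (0.58 ± 0.07, edgeR adjusted p = 3.81e-06). No library of one group reached the other for either gene. GAPDH, the NADH-yielding dehydrogenase, had 1193 and 1334 CPM in the libraries labelled siNAT10, against 950.1 and 936 CPM in siControl (0.42 ± 0.07, edgeR adjusted p = 4.36e-05). LDHA, the lactate dehydrogenase subunit common in muscle and tumours, had 695 and 749.9 CPM in the libraries labelled siNAT10, against 524 and 556 CPM in siControl (0.42 ± 0.07, edgeR adjusted p = 3.72e-05). GAPDH shares 14.2% of its length with the antisense row RP5-940J5.9, which held 16405 and 15436 counts in the libraries labelled siNAT10 and 13795 and 12895 in siControl. ENO2, the enolase typical of neurons, moved the other way: 20.3 and 20.3 CPM in the libraries labelled siNAT10, against 33.7 and 33.1 CPM in siControl (-0.72 ± 0.09, edgeR adjusted p = 2.06e-06). LDHB, the lactate dehydrogenase subunit common in heart, was not called at 0.06 ± 0.06, with an interval of -0.07 to 0.19.

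**Figure D3:**
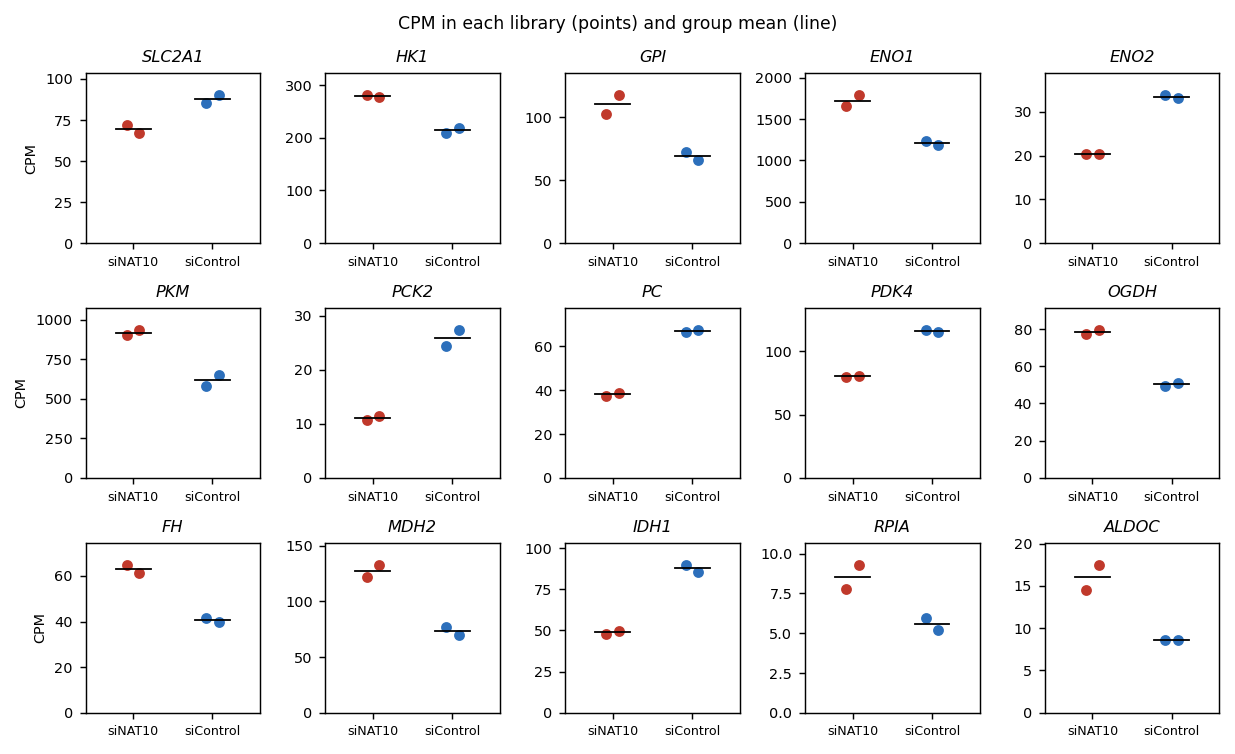
CPM (y axis, from 0 in each panel) of 15 genes in each library (points, 2 per group) with the group mean (line), libraries labelled siNAT10 on the left and siControl on the right. In every panel the 2 groups are apart, with SLC2A1, ENO2, PCK2, PC, PDK4 and IDH1 lower and the other 9 genes higher in the libraries labelled siNAT10.

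Promoters of glycolytic genes are textbook targets of hypoxia-inducible factors, whose response element has the core ACGTG, and of E-box factors such as MYC, which bind CACGTG. RefSeq promoter windows on GRCh38.p14, from 250 bases before to 50 after a transcript start, were at hand for 53 of the 57 genes, and the window nearest the deposited gene end was used. SLC2A3, SLC16A1, PFKFB2 and OGDH had no window. The windows of 4 genes are printed, which are those of lower glycolysis that hold an ACGTG: LDHA, PGK1 and GAPDH rose and ENO2 fell. The windows of ENO1, PGAM1 and PKM, which also rose, and of LDHB, which was not called, held 0 matches. Capitals mark ACGTG on either strand, and every CACGTG holds it on both strands, so it counts as 2 matches. The windows are LDHA on the plus strand at chr11:18394313-18394612, PGK1 on the plus strand at chrX:78103998-78104297, GAPDH on the plus strand at chr12:6535014-6535313, and ENO2 on the plus strand at chr12:6914330-6914629. The PGK1 window lies 39060 bases from the deposited gene end, since the deposited row reaches further upstream. For the same reason the LDHB window lies 100015 bases and the PGAM1 window 1658 bases from the deposited ends of those genes. Their lack of matches holds for these windows only.
LDHA: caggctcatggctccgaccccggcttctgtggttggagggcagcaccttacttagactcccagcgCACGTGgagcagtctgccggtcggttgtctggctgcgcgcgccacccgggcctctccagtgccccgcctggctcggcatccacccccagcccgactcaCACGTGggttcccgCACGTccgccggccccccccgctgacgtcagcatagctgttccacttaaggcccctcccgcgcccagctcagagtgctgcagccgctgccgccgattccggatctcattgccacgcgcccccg
PGK1: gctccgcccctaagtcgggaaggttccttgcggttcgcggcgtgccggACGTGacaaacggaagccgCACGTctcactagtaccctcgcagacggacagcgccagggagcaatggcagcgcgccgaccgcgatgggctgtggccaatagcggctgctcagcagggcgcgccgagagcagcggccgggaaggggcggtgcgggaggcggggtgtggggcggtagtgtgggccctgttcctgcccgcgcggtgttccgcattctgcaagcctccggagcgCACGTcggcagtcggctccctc
GAPDH: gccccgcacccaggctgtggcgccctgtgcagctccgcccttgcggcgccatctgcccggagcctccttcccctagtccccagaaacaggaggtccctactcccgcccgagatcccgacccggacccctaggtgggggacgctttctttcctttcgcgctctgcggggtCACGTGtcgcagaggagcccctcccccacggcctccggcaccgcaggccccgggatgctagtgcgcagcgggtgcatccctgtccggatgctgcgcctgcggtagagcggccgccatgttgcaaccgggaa
ENO2: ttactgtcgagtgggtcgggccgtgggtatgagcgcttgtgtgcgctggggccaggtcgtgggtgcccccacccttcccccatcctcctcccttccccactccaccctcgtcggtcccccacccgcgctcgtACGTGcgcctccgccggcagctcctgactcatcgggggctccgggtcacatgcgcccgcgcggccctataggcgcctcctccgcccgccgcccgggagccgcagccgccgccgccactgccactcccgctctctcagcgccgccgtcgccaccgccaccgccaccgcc
The LDHA window had 5 matches, 4 of them in 2 CACGTG runs, the PGK1 window 3, the GAPDH window 2 in 1 CACGTG run, and the ENO2 window 1. ACGTG was present in 15 of the 53 windows (28.3%), where 21.4% of all 35116 promoter windows held it. It was present in 9 of the 23 windows of genes that rose, in 3 of the 8 of genes that fell and in 3 of the 22 of genes not called. CACGTG was present in 4 of the 53 windows (7.55%), against 7.26% of all windows. All 4 (ALDOC, GAPDH, LDHA and PDHB) were among the 23 of genes that rose, and it was in 0 of the 8 of genes that fell and 0 of the 22 of genes not called. These are matches of letters and say nothing of binding.

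In pyruvate entry and anaplerosis 4 of 8 genes fell and 1 rose, with a median log2 fold change of -0.30. PCK2, the mitochondrial PEP carboxykinase, turns oxaloacetate into phosphoenolpyruvate and lies on chromosome 14 (24094053 to 24110598). It had 10.8 and 11.5 CPM in the libraries labelled siNAT10, against 24.5 and 27.3 CPM in siControl, which made it 2.32-fold lower (-1.22 ± 0.10, edgeR adjusted p = 2.1e-08). PC, pyruvate carboxylase, which makes oxaloacetate from pyruvate, had 37.3 and 38.9 CPM in the libraries labelled siNAT10, against 66.4 and 67.4 CPM in siControl (-0.81 ± 0.07, edgeR adjusted p = 4.59e-08). The groups were far apart for both, and PC shares 10.5% of its length with the opposite-strand gene LRFN4. The pyruvate dehydrogenase kinases switch pyruvate dehydrogenase off by phosphorylation. PDK4 had 79.9 and 80.7 CPM in the libraries labelled siNAT10, against 117 and 115 CPM in siControl (-0.53 ± 0.07, edgeR adjusted p = 3e-06). PDK3 had 3.12 and 2.71 CPM in the libraries labelled siNAT10, against 4.99 and 4.36 CPM in siControl (-0.68 ± 0.19, edgeR adjusted p = 0.00674). Without siNAT10 replicate 2 the PDK3 difference missed the threshold (-0.58, edgeR adjusted p = 0.0512). PDK1 and PDK2 were not called, at 0.16 ± 0.17 and 0.02 ± 0.12. PDHB, the beta subunit of the dehydrogenase, was called higher at 0.27 (edgeR adjusted p = 0.00515), though not without siNAT10 replicate 2 (0.22, edgeR adjusted p = 0.0942) or with totals scaling (0.16, edgeR adjusted p = 0.0787). PDHA1, its alpha subunit, was not called at -0.07 ± 0.06, but was called lower with totals scaling (-0.18, edgeR adjusted p = 0.0277).

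In the pentose phosphate pathway 2 of 6 genes rose and 1 fell, and the median log2 fold change was 0.08, which became -0.03 with totals scaling. RPIA, which isomerises ribulose phosphate to ribose phosphate, had 7.77 and 9.28 CPM in the libraries labelled siNAT10, against 5.99 and 5.23 CPM in siControl (0.60 ± 0.15, edgeR adjusted p = 0.00295). PGD, the NADPH-yielding phosphogluconate dehydrogenase, had 175 and 177 CPM in the libraries labelled siNAT10, against 155 and 158 CPM in siControl (0.17 ± 0.06, edgeR adjusted p = 0.0428). PGLS, the lactonase that precedes it, had 4.54 and 4.64 CPM in the libraries labelled siNAT10, against 6.36 and 5.82 CPM in siControl (-0.41 ± 0.16, edgeR adjusted p = 0.044). RPIA passed the test in every alternative tried, while the calls of PGD and PGLS lay near the threshold. PGD was lost without siNAT10 replicate 1 (0.18, edgeR adjusted p = 0.154), without siNAT10 replicate 2 (0.16, edgeR adjusted p = 0.218) and without siControl replicate 1 (0.15, edgeR adjusted p = 0.0783). PGLS was lost when any 1 of the 4 libraries was left out, with log2 fold changes of -0.39 and -0.42 without siNAT10 replicates 1 and 2 and -0.34 and -0.47 without siControl replicates 1 and 2. PGD also missed the threshold with the replicate block (edgeR adjusted p = 0.0701). With no filter on low counts PGD and PGLS both missed it (edgeR adjusted p = 0.0754 and 0.0526). PGLS missed it with DESeq2 too (-0.40, DESeq2 adjusted p = 0.163). PGLS shares 9.17% of its length with the opposite-strand row CTD-3131K8.2. That row had 148 and 155 counts in the libraries labelled siNAT10, against 261 and 266 in siControl. TKT, TALDO1 and RPE, the enzymes that shuffle sugar phosphates in the non-oxidative branch, were not called, at -0.07 to 0.15.

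The TCA cycle had 8 of 11 genes higher and none lower, with a median log2 fold change of 0.41. MDH2, the mitochondrial malate dehydrogenase that closes the cycle, lies on chromosome 7 (76048051 to 76067508). It had 122 and 133 CPM in the libraries labelled siNAT10, against 76.8 and 69.5 CPM in siControl, which made it 1.74-fold higher (0.80 ± 0.07, edgeR adjusted p = 5.01e-08). OGDH, the first subunit of oxoglutarate dehydrogenase, had 77.6 and 79.4 CPM in the libraries labelled siNAT10, against 49.5 and 51.2 CPM in siControl (0.64 ± 0.07, edgeR adjusted p = 5.72e-07). No library of one group reached the other in either gene. FH, fumarase, had 64.7 and 61.3 CPM in the libraries labelled siNAT10, against 41.4 and 39.7 CPM in siControl (0.64 ± 0.07, edgeR adjusted p = 1.33e-06). IDH3G, a regulatory subunit of the NAD-linked isocitrate dehydrogenase, had 26.0 and 28.9 CPM in the libraries labelled siNAT10, against 19.0 and 19.4 CPM in siControl (0.51 ± 0.09, edgeR adjusted p = 1.95e-04). CS, citrate synthase, and SUCLG2, the GTP-linked succinyl-CoA ligase subunit, rose by 0.41 and 0.44 on the log2 scale. CS shares 3.44% of its length with RP11-977G19.10, a row on the same strand. That row had 3747 and 2893 counts in the libraries labelled siNAT10, against 3587 and 4292 in siControl. DLST, the second subunit of oxoglutarate dehydrogenase, and SUCLG1, the shared succinyl-CoA ligase subunit, rose by 0.19 and 0.22, close to the threshold at edgeR adjusted p-values of 0.0414 and 0.04. DLST lost its call without siNAT10 replicate 1 (0.21, edgeR adjusted p = 0.0999), without siNAT10 replicate 2 (0.17, edgeR adjusted p = 0.224) and without siControl replicate 1 (0.14, edgeR adjusted p = 0.156). SUCLG1 lost it without siNAT10 replicate 2 (0.10) and without siControl replicate 2 (0.15). The SUCLG1 call was also lost with DESeq2 (0.23, DESeq2 adjusted p = 0.0812) and with limma-voom (0.22, limma-voom adjusted p = 0.0546). DLST also missed the threshold with the replicate block (edgeR adjusted p = 0.0582) and with no filter on low counts (edgeR adjusted p = 0.0702). With DESeq2 it missed as well (0.19, DESeq2 adjusted p = 0.0765). The 3 genes not called were IDH3A and IDH3B, the other subunits of the NAD-linked enzyme, and SUCLA2, the ATP-linked ligase subunit, at -0.14 to 0.14. IDH3A, which shares 38.2% of its length with the antisense gene ACSBG1, was called higher without siControl replicate 2 (0.20, edgeR adjusted p = 0.0382). SUCLA2 was called lower with totals scaling (-0.25, edgeR adjusted p = 0.0165).

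Among the NADP-linked, shuttle and glutamate enzymes 2 of 8 genes rose and 1 fell, with a median log2 fold change of 0.14. IDH1, the cytosolic NADP-linked isocitrate dehydrogenase, lies on chromosome 2 (208236227 to 208266074). It had 48.0 and 49.9 CPM in the libraries labelled siNAT10, against 89.7 and 85.8 CPM in siControl, which made it 1.79-fold lower (-0.84 ± 0.07, edgeR adjusted p = 1.7e-08). Its mitochondrial counterpart IDH2 was not called at 0.08 ± 0.08, with an interval of -0.09 to 0.25. ME2, the mitochondrial malic enzyme, had 25.3 and 24.2 CPM in the libraries labelled siNAT10, against 17.3 and 15.9 CPM in siControl (0.58 ± 0.10, edgeR adjusted p = 7.44e-05). MDH1, the cytosolic malate dehydrogenase of the malate-aspartate shuttle, had 26.8 and 28.6 CPM in the libraries labelled siNAT10, against 23.1 and 22.3 CPM in siControl (0.29 ± 0.09, edgeR adjusted p = 0.015). The MDH1 call was lost without siNAT10 replicate 2 (0.24, edgeR adjusted p = 0.124) and with totals scaling (0.18, edgeR adjusted p = 0.128). The cytosolic malic enzyme ME1, the aminotransferases GOT1 and GOT2 and the glutamate dehydrogenase GLUD1 were not called, at -0.01 to 0.20, and ME1 was called higher without siControl replicate 1 (0.31, edgeR adjusted p = 0.0363).

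Levels of different genes were compared as CPM per kilobase of the deposited gene length. ENO1 stood at 436 ± 22.5 and GAPDH at 424 ± 33.3 CPM per kilobase in the libraries labelled siNAT10 (SD, n = 2), less apart than their spread. In siControl ENO1 stood at 307 ± 8.37 and GAPDH at 316 ± 3.29 CPM per kilobase, so GAPDH was nominally first there and ENO1 first in the libraries labelled siNAT10. LDHB came next in both groups, at 243 ± 0.511 CPM per kilobase in the libraries labelled siNAT10 and 233 ± 1.06 in siControl. PDHA1 and TPI1 followed at 126 ± 5.69 and 129 ± 2.88 CPM per kilobase in the libraries labelled siNAT10, not apart beyond their spread, whereas in siControl they stood at 132 ± 3.54 and 90.4 ± 3.65. The places of LDHB and PDHA1 rest on the deposited lengths (2983 bases for LDHB, 4493 for PDHA1, 6210 for LDHA, 8571 for PKM). In CPM not scaled by length, PKM (903 and 934) stood above LDHB (726 and 724) in the libraries labelled siNAT10. PKM and LDHA (695 and 750) also stood above PDHA1 (548 and 584) in those libraries. In siControl LDHB (697 and 693 CPM) stood above PKM (583 and 651 CPM). At the low end were PFKFB4, PDK1 and SLC2A3, all under 1 CPM per kilobase in both groups. PDK4 was by far the main pyruvate dehydrogenase kinase mRNA, at 17.8 ± 0.127 CPM per kilobase in the libraries labelled siNAT10 and 25.7 ± 0.185 in siControl.

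**Figure D4:**
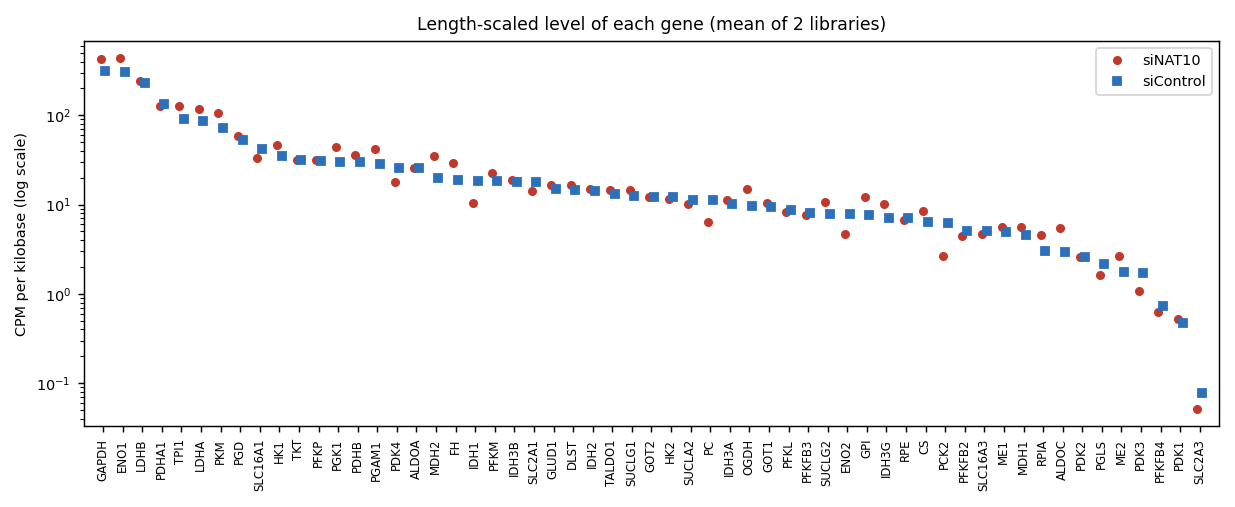
Mean CPM per kilobase of gene length (y axis, log scale) of each of the 57 genes in the libraries labelled siNAT10 (red circles) and siControl (blue squares), 2 libraries per group, ordered along the x axis by the siControl level. On this length-scaled axis GAPDH, ENO1 and LDHB stand highest in both groups, and SLC2A3 is the lowest.

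Ratios within 15 isozyme pairs, which do not depend on how libraries are scaled, were taken in each library from the same length-scaled levels. They are given as a description with no test. For a single ratio, a two-sided exact permutation test of 2 against 2 libraries cannot go below p = 0.333. In 7 pairs both libraries labelled siNAT10 lay above both siControl libraries, in 7 below, and in 1 pair (SLC2A3 to SLC2A1) the groups overlapped. Single genes without overlap made up 34.1% (above) and 35.4% (below) of all tested genes, no such share was taken over other gene pairs, and nothing is read from the count. IDH1 to IDH2 was 0.712 and 0.679 in the libraries labelled siNAT10, against 1.38 and 1.26 in siControl. Which of the 2 mRNAs was in excess depends on the length scaling (4721 bases for IDH1, 2814 for IDH2). In CPM not scaled by length, IDH1 stood above IDH2 in every library. In the libraries labelled siNAT10 these were 48.0 and 49.9 CPM for IDH1 and 40.2 and 43.8 CPM for IDH2. The lower ratio in the libraries labelled siNAT10 does not depend on length. ENO2 to ENO1 was 0.0113 and 0.0105 in the libraries labelled siNAT10, against 0.0252 and 0.0257 in siControl, a log2 difference of -1.22. The ratio of ALDOC to ALDOA was 0.199 and 0.229 in the libraries labelled siNAT10, against 0.118 and 0.112 in siControl. In that pair ALDOA remained the main mRNA in every library. HK2 to HK1 was 0.256 and 0.243 in the libraries labelled siNAT10, against 0.331 and 0.349 in siControl, and LDHB to LDHA was 2.17 and 2.01 in the libraries labelled siNAT10, against 2.77 and 2.60 in siControl. MDH1 to MDH2 was 0.160 and 0.157 in the libraries labelled siNAT10, against 0.219 and 0.234 in siControl. SUCLG2 to SUCLA2, the GTP-linked to the ATP-linked subunit, was 0.960 and 1.11 in the libraries labelled siNAT10, against 0.642 and 0.741 in siControl. PDK1 to PDK3 was 0.520 and 0.437 in the libraries labelled siNAT10, against 0.292 and 0.244 in siControl. In this pair too, which mRNA was in excess depends on the length scaling (14883 bases for PDK1, 2695 for PDK3). In CPM not scaled by length, PDK1 stood above PDK3 and SUCLG2 stood below SUCLA2 in every library. In CPM, LDHB stood below LDHA in siNAT10 replicate 2 (724 against 750 CPM) and above it in the other libraries. The group differences in these ratios do not depend on length.

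**Figure D5:**
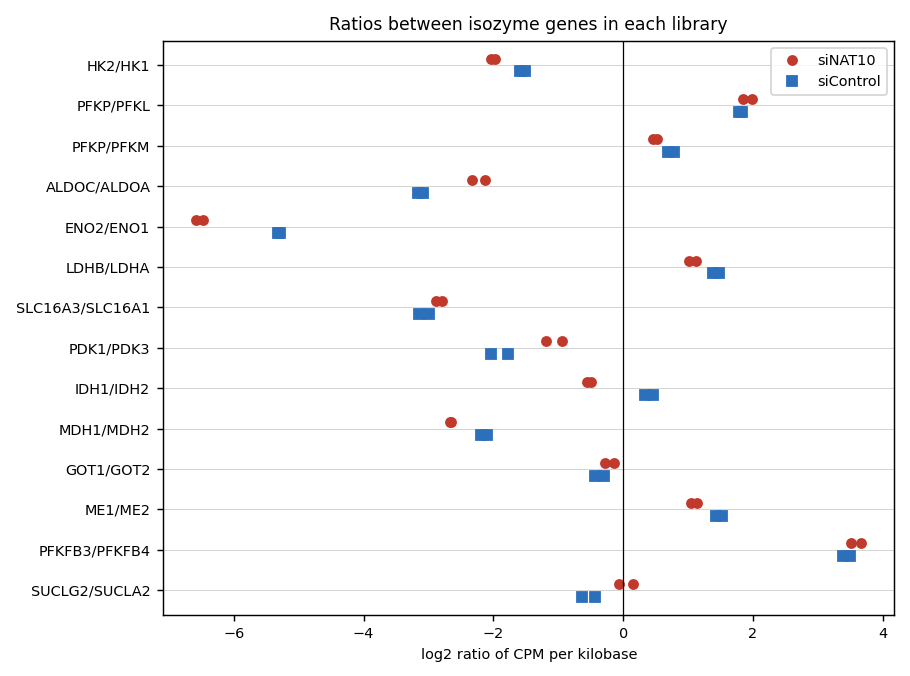
Log2 ratio of CPM per kilobase (x axis) between the genes of 14 isozyme pairs (y axis) in each library labelled siNAT10 (red circles) and each siControl library (blue squares); the line at 0 marks equal levels, and the pair SLC2A3 to SLC2A1 is not drawn. In each of the 14 pairs the 2 groups do not overlap. IDH1 to IDH2 lies on opposite sides of 0 in the 2 groups, which rests on the length scaling. For other pairs too, such as PDK1 to PDK3, the side of 0 rests on that scaling.

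Genes of the same pathways outside the 57 were counted from fixed lists of 65, of which 53 were tested. Of these, 15 (28.3%) were higher and 14 (26.4%) lower, where 19.7% and 20.7% of all tested genes were. The single lists below are short, and nothing is read from their shares. Of the other glycolysis enzymes 3 of 16 tested rose (18.75%) and 5 fell (31.25%). ENO3, the enolase typical of muscle, had 55.5 and 58.6 CPM in the libraries labelled siNAT10, against 153 and 169.5 CPM in siControl (-1.50 ± 0.07, edgeR adjusted p = 8.21e-12). ENO2 and ENO3 thus fell while ENO1 rose. PGM2L1, which makes glucose bisphosphate, fell by 0.85 on the log2 scale, and BSG, the chaperone of the lactate carriers, fell by 0.48. ADPGK, an ADP-dependent glucokinase, rose by 0.55 on the same scale. Of the other pentose phosphate genes 2 of 6 rose (33.3%) and 2 fell (33.3%). Those that rose were RBKS, ribokinase, at 1.10, and PRPS1, which makes phosphoribosyl pyrophosphate, at 0.25. Those that fell were H6PD, the glucose phosphate dehydrogenase of the endoplasmic reticulum, at -0.55, and SHPK, sedoheptulokinase, at -0.96. SHPK shares 70.8% of its length with another row on the same strand, and the PRPS1 call was lost with totals scaling (0.13, edgeR adjusted p = 0.122) and without siNAT10 replicate 1 (0.22, edgeR adjusted p = 0.0805).

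Of the other pyruvate and TCA genes 9 of 22 tested rose (40.9%) and 5 fell (22.7%), with a median log2 fold change of 0.23. The 4 called genes with the smallest adjusted p all rose. The mitochondrial citrate carrier SLC25A1 rose by 0.71 on the log2 scale, the aspartate-glutamate carrier SLC25A13 by 0.60, the shared dehydrogenase subunit DLD by 0.53 and the citrate-cleaving ACLY by 0.41. The 5 that fell, named after their values were seen, were PCK1, the cytosolic PEP carboxykinase, at -0.57, MPC2, a subunit of the mitochondrial pyruvate carrier, at -0.42, SDHC, a membrane anchor of succinate dehydrogenase, at -0.36, the oxoglutarate carrier SLC25A11 at -0.33 and the dehydrogenase DHTKD1 at -0.24. The PCK1 call was lost without siNAT10 replicate 2 (-0.53) and with DESeq2 (-0.56, DESeq2 adjusted p = 0.0571). The MPC2 call was lost without siControl replicate 2 (-0.28). SLC25A11 lost its call without siNAT10 replicate 1 (edgeR adjusted p = 0.0551) and without siControl replicate 2 (edgeR adjusted p = 0.100). The DHTKD1 call was lost without either siNAT10 library or siControl replicate 2, at edgeR adjusted p-values of 0.0873, 0.0845 and 0.143. Of the other shuttle and glutamate genes 1 of 9 rose (11.1%) and 2 fell (22.2%). GPT2, the mitochondrial alanine aminotransferase, had 14.0 and 15.3 CPM in the libraries labelled siNAT10, against 37.1 and 34.4 CPM in siControl, which made it 2.45-fold lower (-1.29 ± 0.09, edgeR adjusted p = 2.51e-09). GPT, its cytosolic counterpart, was scarce at 0.780 and 0.339 CPM in the libraries labelled siNAT10, against 2.47 and 2.10 CPM in siControl (-1.99 ± 0.34, edgeR adjusted p = 1.10e-04). ME3, the mitochondrial NADP-linked malic enzyme, was called higher at 0.44. It lost the call without siNAT10 replicate 2 (0.41) and without siControl replicate 2 (0.40). The ME3 call was also lost with totals scaling (0.33, edgeR adjusted p = 0.0606) and with DESeq2 (0.45, DESeq2 adjusted p = 0.0554).

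The changes were set beside the level, GC content and length of the genes. Level was the mean CPM over both groups, so the change itself enters it and genes that rose are moved up. By level, the 26 genes under 50 CPM had a median log2 fold change of 0.05, the 14 genes of 50 to 100 CPM 0.14 and the 17 genes of at least 100 CPM 0.27. The medians of all tested protein-coding genes in the same ranges were -0.06, 0.04 and 0.11, so medians went up with level in both sets. Across the 57 genes Spearman's rho of the log2 fold change was -0.06 with GC content and -0.16 with gene length, against -0.16 and -0.01 across all tested protein-coding genes. These are descriptions across genes of the same 4 libraries. Of the 57 genes, 28 share exon bases with another row. Reads in shared parts cannot be assigned where strand was not used or where both rows lie on the same strand. Among the 29 genes with no overlapping row, refitted with such rows alone, 14 were called higher and 4 lower. In that fit 19.2% of all rows tested were called higher and 20.7% lower. For 19 genes, named pseudogene rows were present. Their summed counts came to 8.73% of the count of GLUD1 and 2.14% of that of TPI1, and, apart from SLC2A3, to 1% or less of the others.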

How the data were processed

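RNA sequencing was done on 4 libraries of SAS cells, 2 labelled siNAT10 and 2 labelled siControl, grouped by their titles. Per the labels' protocols, total RNA from TRIzol extraction went into the KC Digital mRNA kit. Per the submitters' processing notes, the tools were fastp 0.23.4, STAR 2.5.3a and featureCounts with the GRCh38 build. Strand setting, annotation release and any use of molecular identifiers were not given in the sources used here. As deposited by the authors, 1 table held raw, unnormalized counts for 35767 genes, with positions and lengths. Between 72.0% and 73.5% of counts from 1 to 50 were even in each library, as counting both mates of a pair would give. Of the 57 genes, 46 had the same start and end in GENCODE release 29.

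Counts were tested in R 4.3.3 with edgeR 4.0.16 (quasi-likelihood test, robust shrinkage, TMM factors, filterByExpr, group as the only term, 2 residual degrees of freedom), two-sided. Adjustment was by Benjamini-Hochberg across the 20098 genes tested, at a threshold of 0.05. CPM use TMM-scaled library sizes, log2 fold changes are siNAT10 minus siControl, and intervals at 95% and the floor of 3 counts cover counting error and the spread between these libraries, not PCR copies. Each SE was taken back from the test, as the size of the log2 fold change over the square root of its F statistic. The intervals use the total degrees of freedom after shrinkage, not the 2 residual ones alone. Per-kilobase levels divide CPM by the deposited length. The 12 alternatives included DESeq2 1.42.0, limma-voom (limma 3.58.1), other scalings and filters, and each library left out. The 57 genes and all lists were chosen with earlier results of these data known, and no list was tested. Values in every library are given, within each of 8 roles, for up to 4 called genes with the smallest adjusted p and for called genes with a log2 fold change of at least 0.58 in size. GAPDH, LDHA and further genes were named beyond this as members of their group. Lists of other enzymes give up to 4 called genes each. The list of other pyruvate and TCA genes also names the 5 that fell, chosen after their values were seen.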

Additional observations from a re-analysis of the deposited data

How the results depend on the processing

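Of the 33 called genes, 25 kept call and direction in every one of the 12 alternatives that tested them. The others were PFKM, PDHB, PDK3, PGLS, PGD, DLST, SUCLG1 and MDH1, and no called gene changed sign. Genes called higher and lower numbered 22 and 8 with DESeq2, 23 and 9 with limma-voom, 22 and 8 with no filter, and 24 and 9 of 56 tested with at least 50 counts in at least 2 libraries or with counts halved. Leaving out 1 library gave 19 to 24 higher and 7 to 9 lower.

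The median log2 fold change of the 57 genes was 0.030 with libraries scaled by their totals alone, 0.163 in the 29 genes with no overlapping row and 0.106 to 0.149 with 1 library left out. With totals scaling the medians were -0.44 for transport, 0.16 for upper glycolysis, -0.30 for the fructose 2,6-bisphosphate enzymes, 0.35 for lower glycolysis, -0.41 for pyruvate entry, -0.029 for the pentose phosphate pathway (a change of sign), 0.29 for the TCA cycle and 0.032 for the NADP-linked group. This scaling moves all genes together, by construction. The calls of PFKM, PDHB, PGD, DLST, SUCLG1 and MDH1 were lost under it, and PFKL, PFKFB2, PDHA1 and SUCLA2 were called lower. With rows that overlap no other row alone, 3934 genes of the whole table were called, 19.2% of those tested higher and 20.7% lower. Of the 57 genes, 29 were tested there, with 14 higher and 4 lower. These counts are smaller because fewer genes were tested. The transport value was then that of SLC2A3 alone (-0.56), a scarce mRNA that was not called. Neither of the called transporters, SLC2A1 and SLC16A1, was in that fit. The fructose 2,6-bisphosphate value was that of PFKFB3 alone (-0.081). The medians were 0.15 for upper glycolysis (HK1 and PFKL only) and -0.68 for pyruvate entry (PDK3, PDK4 and PCK2 only). They were 0.15 for the pentose phosphate pathway and 0.33 for the TCA cycle. With 1 library left out the medians ranged from -0.37 to -0.21 for transport, -0.23 to -0.086 for the fructose 2,6-bisphosphate enzymes, 0.41 to 0.53 for lower glycolysis, -0.33 to -0.29 for pyruvate entry, 0.059 to 0.13 for the pentose phosphate pathway and 0.32 to 0.48 for the TCA cycle.

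With the replicate block, 22 of the 57 genes were higher and 9 lower, and 3997 and 4257 over the whole table. The labels name no shared batch. The deviations of same-numbered libraries had a correlation of -0.03 across 16094 genes. A correlation near 0 cannot tell whether same-numbered libraries shared a day or a culture, so pairing remains unknown. Depth limited SLC2A3, under 1 CPM, whose 95% interval ran from -1.69 to 0.57.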
